A study of Saccharomyces cerevisiae BY4741 with 40 samples.

Results

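Among the start site clusters of protein-coding genes in budding yeast, 254 were more than 2-fold higher in cells without the nuclear exonuclease Rrp6 than in wild-type (WT) cells. A transcription start site cluster (TSSC) is a group of neighboring 5′-ends of capped, polyadenylated RNAs, and those assigned to an ORF are called mRNA-TSSCs. The 254 members were all mRNA-TSSCs whose rrp6∆ value plus 1 was more than 2 times the WT value plus 1. They belong to 232 genes and were found among 5927 mRNA-TSSCs of 5231 genes, in a table of 17812 TSSCs. The members were thus chosen by the rrp6∆ and WT values of the RRP6 experiment, which describe them and are no finding about them.

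The study mapped capped 5′-ends in 2 experiments, and each of 4 genotypes had 3 libraries in each. All strains derive from BY4741 and carry a can1 deletion, the WT strain included. By the labels of the RRP6 experiment, upf1∆rrp6∆ cells had upf1 replaced by KANMX6 and rrp6 by HPHMX6, rrp6∆ cells had only rrp6 replaced (hphMX6), and upf1∆ cells only upf1 (KANMX6). In the SET2 experiment, upf1∆set2∆ cells carried set2 replaced by KANMX6 and upf1 by HIS3MX6. The set2∆ cells (KANMX6) and upf1∆ cells (KANMX6) of that experiment, with its own WT libraries, complete the set. Cells grew in YPD-rich medium to mid-exponential phase. The labels give 2 strain references among the 3 libraries of upf1∆rrp6∆, of rrp6∆ and of WT cells in the RRP6 experiment, and 1 for upf1∆. The study's strain list differs from the labels in giving HIS3MX6 as the marker of the upf1∆ strain and of the second upf1∆rrp6∆ strain. A reference number is not a culture, and the pooled values used here do not show how far libraries of a genotype differ. The authors' own p-value for each TSSC was not used.

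Rrp6 is a 3′ to 5′ exonuclease of the nuclear exosome. Short RNA polymerase II transcripts whose synthesis is ended by the Nrd1-Nab3-Sen1 complex receive a poly(A) tail from TRAMP and are trimmed or destroyed by the exosome, and cryptic unstable transcripts are its best known substrates. Nrd1 and Nab3 bind short RNA motifs, of which GTAG and TCTTG (in DNA letters) are the usual forms. Several yeast genes for nucleotide synthesis and NRD1 itself are known to be controlled by such early termination. Upf1 is the central factor of nonsense-mediated decay in the cytoplasm, and Set2 is a histone methyltransferase that acts along gene bodies.

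The sequence after the cluster is the start of the RNA itself, so stretches with these motifs are shown first, for members on which the results below turn. Each stretch is 30 bases of the R64 reference (RefSeq), sense strand, 5′ to 3′, with GTAG and TCTTG in capitals.
IMD3: atttcttttcttTCTTGcttctatataact
TAF8: ttatGTAGaaaaTCTTGaactctttaaaaa
SIL1: gcatagtatattTCTTGttgtatacgcagc
AGP3: agagaaaggttaTCTTGtaagcatacatat
ART10: cactttttaaatTCTTGattctgctctagt
NRD1: atttttttgtattGTAGttttctctgatta
LEU4: cggctctgagacaGTAGTAGgttagtcatc
The IMD3 stretch (chromosome XII, 1002384 to 1002413, plus strand) begins its motif 35 nt after the cluster and lies before the ATG of the ORF. In TAF8 (chromosome XIII, 43647 to 43676, minus strand) both motifs stand within the same stretch. The SIL1 stretch lies on chromosome XV from 267828 to 267857 (minus), that of AGP3 on VI from 16818 to 16847 (plus) and that of ART10 on XII from 906759 to 906788 (minus). Those of NRD1 (XIV, 174397 to 174426) and LEU4 (XIV, 427168 to 427197), both on the minus strand, hold GTAG and no TCTTG. A match of letters is a description and does not show that a protein binds there.

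Each value below is the authors' pooled normalized read number of a genotype, a whole number with no SD or n. From 1 value per genotype no test over libraries was computed here, and a ratio was called where it was over 2-fold after 1 was added to both values. The pooled WT values of both experiments were set side by side, which does not give the spread between libraries of a genotype. Clusters were called separately in the 2 experiments and paired by overlap, so their edges can differ as well. After scaling, 4.10% of 5640 mRNA-TSSCs found in both were over 2-fold higher in WT of the RRP6 experiment than in WT of the SET2 experiment, and 1.22% were over 2-fold lower. Summed over all TSSCs, the 4 genotypes of the RRP6 experiment had between 4276051 and 4985459 normalized reads. The mRNA-TSSC of RRP6 had 2 in rrp6∆ and 86 in WT cells. That of NAM7, the gene of Upf1, lies wholly before its ATG, so its 176 in upf1∆ and 220 in WT cells do not check the deletion of the ORF. The ACT1 mRNA-TSSC had 21902 in rrp6∆ and 25663 in WT cells.

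The members were mostly weak starts. Their median value was 62 in rrp6∆ and 15 in WT cells, while the other 5673 mRNA-TSSCs had medians of 146 in rrp6∆ and 141 in WT. The WT value was 0 for 19 members, 1 to 9 for 81, 10 to 29 for 57, 30 to 99 for 52 and 100 or more for 45. The members make up 4.29% of mRNA-TSSCs, and among all TSSCs, which include the cryptic transcripts, 24.7% met the same limit. Of the 254 members, 229 would meet the rule for any values that round to the deposited ones, and 25 lie close enough to the limit that rounding alone could decide them. The last members inside the limit were CTF19 (444 in rrp6∆, 220 in WT), EXO5 (420 and 208) and MEF2 (112 and 55). The nearest mRNA-TSSCs outside it were FET4 (207 in rrp6∆, 103 in WT), MGS1 (21 and 10) and SCH9 (19 and 9).

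**Figure D1:**
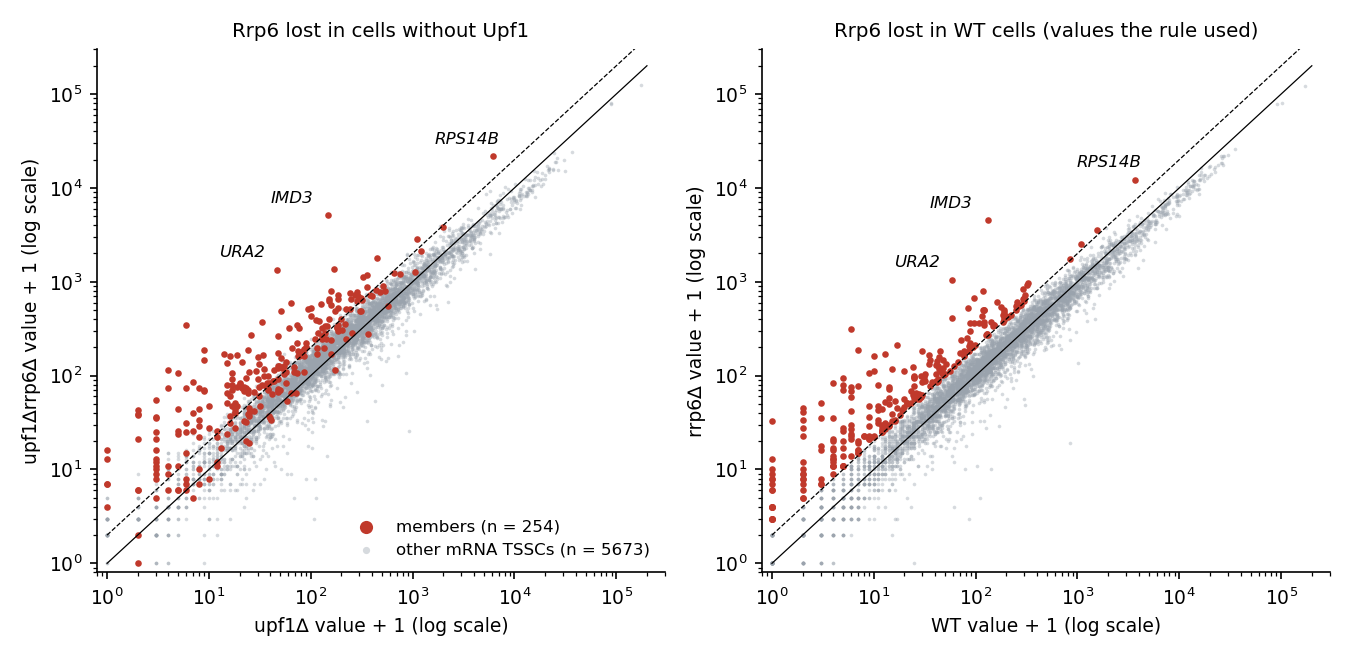
Normalized values of 5927 mRNA-TSSCs, with 1 added, on log axes: left, upf1∆rrp6∆ against upf1∆ cells. Right, rrp6∆ against WT cells, the values that chose the members. Each point is a TSSC with the authors' pooled values, members in red. The solid line marks equality and the dashed line a 2-fold ratio. In the left panel 168 of the 254 members stay above the dashed line.

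The same deletion was measured a second time, in cells that also lack Upf1, with libraries that the rule did not use. There 168 of the 254 members, or 66.1%, were over 2-fold higher in upf1∆rrp6∆ than in upf1∆ cells, against 5.30% of all mRNA-TSSCs and 2.57% of those that are no members. Of the others, 68 members were higher by up to 2-fold, 18 were not higher and 0 were over 2-fold lower, where 2.85% of all mRNA-TSSCs were over 2-fold lower. In log2 terms the median of this ratio was 1.32 over the members and 0.15 over all mRNA-TSSCs. The median value of a member was 98 in upf1∆rrp6∆ and 34.5 in upf1∆ cells.

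At every WT level, this second ratio was over 2-fold for most members. It was so for 14 of the 19 members with a WT value of 0, for 59 of 81 with 1 to 9, for 32 of 57 with 10 to 29, for 38 of 52 with 30 to 99 and for 25 of 45 with 100 or more. The low classes are no independent support. A TSSC needed at least 4 reads in some library, and the control libraries of this experiment came from upf1∆rrp6∆ cells. A start near 0 in WT cells could thus enter through cells without Rrp6. Among other mRNA-TSSCs with WT values between the quartiles of the members (4 to 64), 5.10% of 1587 were over 2-fold higher in upf1∆rrp6∆ than in upf1∆ cells.

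**Figure D2:**
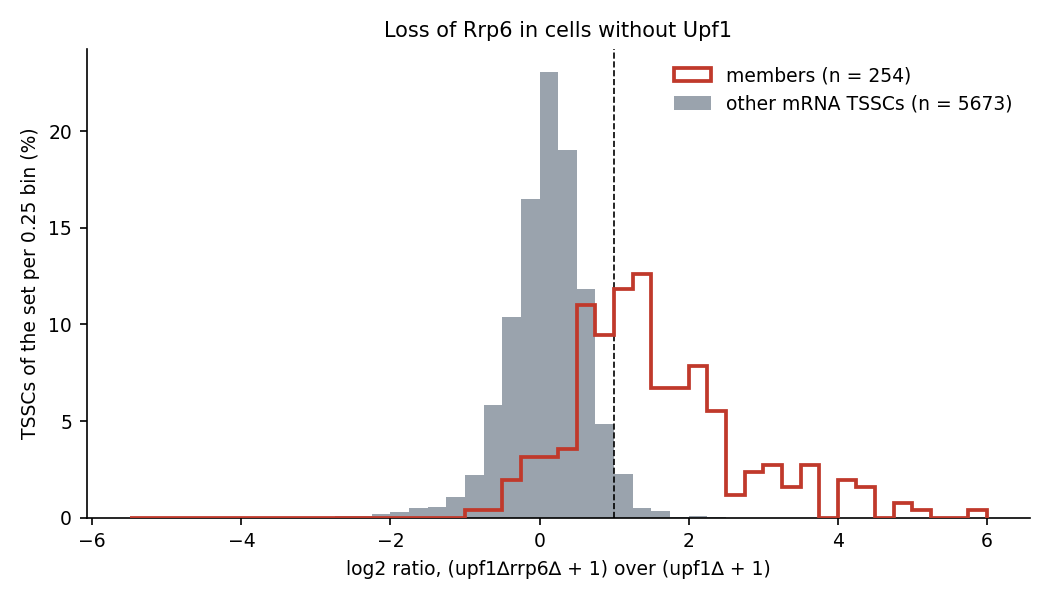
Distribution of the log2 ratio of upf1∆rrp6∆ over upf1∆ (1 added to both values), as the percentage of each set per bin, for the members (red line) and the other mRNA-TSSCs (gray). The dashed line marks 2-fold. The members have a median of 1.32 and the other mRNA-TSSCs one of 0.13.

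The members with the largest ratios included genes of nucleotide synthesis. IMD3 encodes an IMP dehydrogenase, the enzyme that commits IMP to GTP synthesis. Its member, on chromosome XII from 1002296 to 1002361, had 5081 in upf1∆rrp6∆ against 148 in upf1∆ cells, and 4494 in rrp6∆ against 130 in WT cells. Both cell types without Rrp6 thus stood far above both with it, with log2 ratios of 5.09 and 5.10. URA2 encodes the enzyme of the first steps of pyrimidine synthesis. Its member (X, 172944 to 173053) had 1343 in upf1∆rrp6∆ against 46 in upf1∆ cells, and 1048 in rrp6∆ against 58 in WT cells (log2 ratios 4.84 and 4.15). IMD2, a second IMP dehydrogenase gene, had 1120 in upf1∆rrp6∆ against 325 in upf1∆ cells, and 973 in rrp6∆ against 328 in WT cells. Its member (VIII, 554149 to 554382) is a wide cluster that reaches to 14 nt before the ATG, so starts at its 2 ends are summed in 1 value.

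Genes of amino acid supply were found as well. LEU4, for the first enzyme of leucine synthesis, had a member (XIV, 427210 to 427256) with 1374 in upf1∆rrp6∆ against 167 in upf1∆ cells, and 675 in rrp6∆ against 95 in WT cells. The member of AGP3, an amino acid permease, had 375 in upf1∆rrp6∆ against 32 in upf1∆ cells, and 167 in rrp6∆ against 12 in WT cells. MEP1, an ammonium permease, had 486 in upf1∆rrp6∆ against 50 in upf1∆ cells, and 184 in rrp6∆ against 29 in WT cells. Counted over 13 members in 13 genes of nucleotide and amino acid metabolism, picked after their values were seen, 8 were over 2-fold higher in upf1∆rrp6∆ than in upf1∆ cells. Over 14 members in 12 transporter genes, picked in the same way, it was 7. Both counts lie under the 66.1% of all members.

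Picked likewise after their values were seen, 6 members in 6 genes of factors that act on RNA in the nucleus were counted. Of these, 5 were over 2-fold higher in upf1∆rrp6∆ than in upf1∆ cells, beside 66.1% of all members. The pick is not complete, so its share describes the pick only. Left out were, among others, CUS1, NOP15, NOP6 and PUF6, with log2 ratios of 0.26, 0.28, 0.37 and 0.53 in cells without Upf1. NRD1 (XIV, 174517 to 174638) had 522 in upf1∆rrp6∆ against 99 in upf1∆ cells, and 523 in rrp6∆ against 84 in WT cells. Its partner NAB3 (XVI, 187758 to 187853) had 620 in upf1∆rrp6∆ against 281 in upf1∆ cells, and 678 in rrp6∆ against 300 in WT cells. The ratio of NRD1 was the larger, with a log2 of 2.39 in cells without Upf1 against 1.14 for NAB3. NAB2 encodes a poly(A)-binding protein of the nucleus, and its member had 383 in upf1∆rrp6∆ against 120 in upf1∆ cells, and 341 in rrp6∆ against 120 in WT cells. REF2, a 3′-end formation factor, had 393 in upf1∆rrp6∆ against 111 in upf1∆ cells, and 365 in rrp6∆ against 87 in WT cells. DBP2, for an RNA helicase, was closer to the limit, with 2142 in upf1∆rrp6∆ against 1204 in upf1∆ cells and 2526 in rrp6∆ against 1093 in WT cells.

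**Figure D3:**
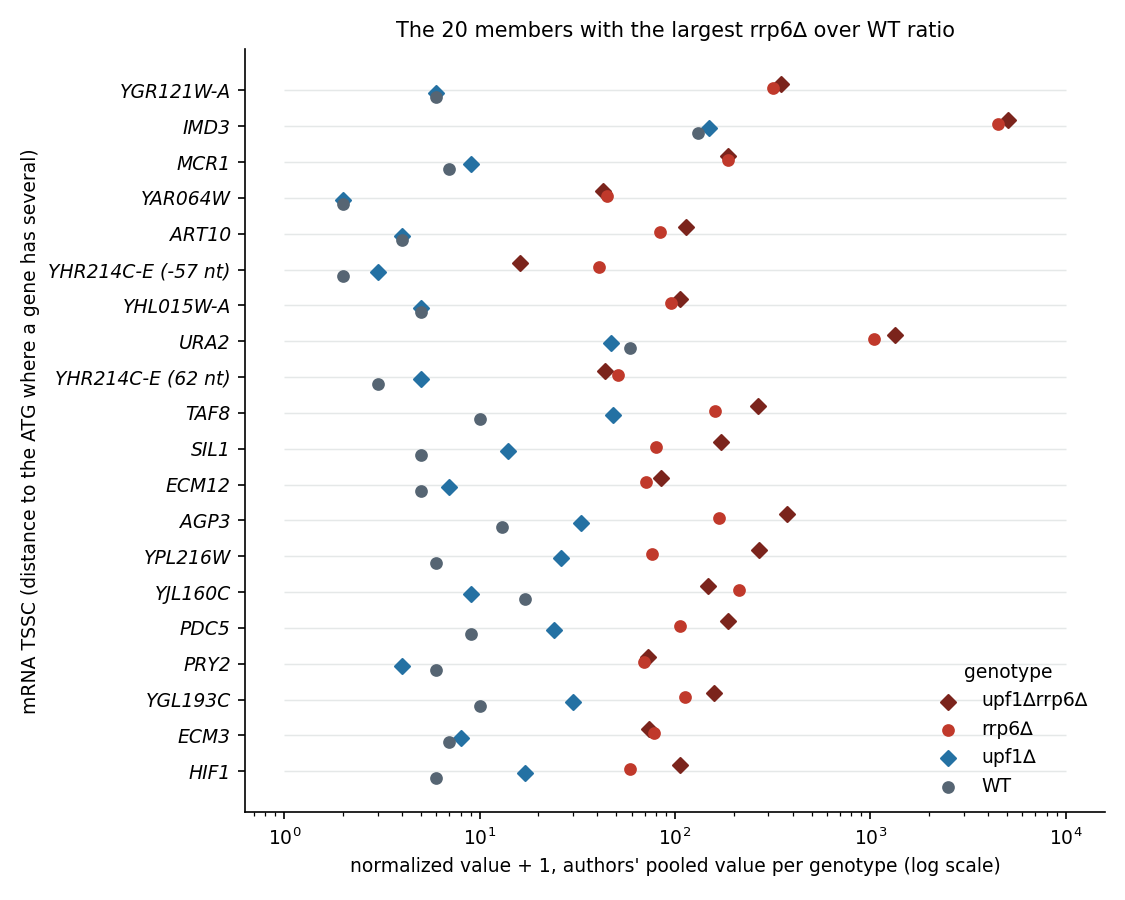
Values of the 20 members with the largest rrp6∆ over WT ratio among those with a mean of both of at least 20, with 1 added, on a log axis. Each row is a TSSC and each mark the authors' pooled value of a genotype. In every row the values of upf1∆rrp6∆ and rrp6∆ lie right of those of upf1∆ and WT, and IMD3 and URA2 reach the highest values.

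Regulators of transcription and chromatin gave 17 members in 16 genes, a group chosen after values were seen, of which 12 were over 2-fold higher in upf1∆rrp6∆ than in upf1∆ cells, a share near the 66.1% of all members. TAF8, a TFIID subunit, had 266 in upf1∆rrp6∆ against 47 in upf1∆ cells, and 160 in rrp6∆ against 9 in WT cells. HIF1, a histone chaperone gene outside this count, had 105 in upf1∆rrp6∆ against 16 in upf1∆ cells, and 58 in rrp6∆ against 5 in WT cells. MIG3, a repressor related to the glucose repressor Mig1, had 1784 in upf1∆rrp6∆ against 447 in upf1∆ cells, and 796 in rrp6∆ against 117 in WT cells. In all 3 the upf1∆ value also stood above that of WT cells in this experiment, whose WT values helped to choose the members. In the SET2 experiment this held for TAF8 (27 in upf1∆, 2 in WT) and MIG3 (423 and 90). HIF1 had only 1 in upf1∆ and 2 in WT cells there. MCM1, a transcription factor of mating and cell cycle genes, was high in both settings but less raised without Upf1, with 794 in upf1∆rrp6∆ against 536 in upf1∆ cells, and 724 in rrp6∆ against 302 in WT cells.

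Other members with large ratios had little in common by function. MCR1 encodes a mitochondrial cytochrome b5 reductase, SIL1 a nucleotide exchange factor of the ER chaperone Kar2, PDC5 a pyruvate decarboxylase and PRY2 a secreted sterol-binding protein. The SIL1 member had 170 in upf1∆rrp6∆ against 13 in upf1∆ cells, and 79 in rrp6∆ against 4 in WT cells. PDC5 had 185 in upf1∆rrp6∆ against 23 in upf1∆ cells, and 105 in rrp6∆ against 8 in WT cells. PRY2 had 72 in upf1∆rrp6∆ against 3 in upf1∆ cells, and 68 in rrp6∆ against 5 in WT cells. The remaining named members of large ratio, YPL216W, YJL160C, YGL193C, ECM12 and ECM3, had between 70 and 211 in rrp6∆ and between 4 and 16 in WT cells. ART10, an arrestin-related adaptor, had 113 in upf1∆rrp6∆ against 3 in upf1∆ cells, and 83 in rrp6∆ against 3 in WT cells. Counts near 3 give no precise ratio.

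Short and uncharacterized ORFs were frequent among the members. ORFs of under 100 codons gave 29 members, or 11.4%, against 3.97% of the other mRNA-TSSCs. Of the 29, 27 were over 2-fold higher in upf1∆rrp6∆ than in upf1∆ cells, beside 66.1% of members and 5.30% of all mRNA-TSSCs. Some of them, such as YAR064W and YHL015W-A, had values of 4 or less in WT and upf1∆ cells. They could have entered through cells without Rrp6, so the 27 are no independent support. Genes known only by a systematic name gave 26.8% of the members and 12.4% of the others. Among the others with WT values between the quartiles of the members, they gave 16.5%. The largest ratio of all was that of YGR121W-A, an ORF of 71 codons. This member (VII, 733438 to 733536) had 349 in upf1∆rrp6∆ against 5 in upf1∆ cells, and 316 in rrp6∆ against 5 in WT cells. It ends 124 nt past the annotated ATG, and all its starts lie within the short ORF. A second member of YGR121W-A, 132 nt before the ATG, had 324 in upf1∆rrp6∆ against 60 in upf1∆ cells, and 132 in rrp6∆ against 34 in WT cells. It lies from 733190 to 733280, inside the span of the MEP1 member (733106 to 733310) on the opposite strand. YHL015W-A, an ORF of 27 codons, had 105 in upf1∆rrp6∆ against 4 in upf1∆ cells, and 94 in rrp6∆ against 4 in WT cells. Its cluster was 121 nt wide and ended 92 nt past the ATG. It thus began before the ATG, and not all its starts lie within the ORF. YAR064W had 42 in upf1∆rrp6∆ against 1 in upf1∆ cells, and 44 in rrp6∆ against 1 in WT cells. Whether RNAs from such clusters encode these peptides was not tested.

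At the other end were abundant mRNAs. RPS14B, for a protein of the small ribosomal subunit, had the highest WT value of any member (X, 73736 to 73815). It had 21694 in upf1∆rrp6∆ against 6100 in upf1∆ cells, and 12279 in rrp6∆ against 3696 in WT cells. RPS14B was the only member among 139 mRNA-TSSCs of ribosomal protein genes, whose median log2 ratio of upf1∆rrp6∆ over upf1∆ was -0.40. In this ratio 3 of the 139, or 2.16%, were over 2-fold higher. Besides RPS14B these were RPL18B, with 3908 in upf1∆rrp6∆ against 1868 in upf1∆ cells, and RPS22B, with 1951 against 876. ARB1, an ATPase of ribosome biogenesis, had 3810 in upf1∆rrp6∆ against 1968 in upf1∆ cells, and 3529 in rrp6∆ against 1549 in WT cells. NOP15, needed for the large ribosomal subunit, had 1274 in upf1∆rrp6∆ against 1046 in upf1∆ cells, and 1732 in rrp6∆ against 838 in WT cells. SNG1, PYC1 and ERG24 (drug resistance, pyruvate carboxylase and a sterol reductase) had 1191, 699 and 730 in upf1∆rrp6∆, against 358, 293 and 268 in upf1∆ cells.

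Many genes had a member beside other start clusters. Members were the sole mRNA-TSSC of 122 genes, 6 genes had several that were all members, and 104 had a member beside other mRNA-TSSCs. In these 104 genes, the members held a median of 47.7% of the gene's summed value in upf1∆rrp6∆ against 25.3% in upf1∆ cells. The shares in rrp6∆ and WT cells, 42.1% and 14.4%, follow in direction from the rule. For their 155 other clusters, the log2 of upf1∆rrp6∆ over upf1∆ had a median of 0.02, and 13 of them, or 8.39%, were over 2-fold higher. The summed value of the gene was over 2-fold higher in upf1∆rrp6∆ than in upf1∆ cells for 31 of the 104. In 89 of the 104 genes, or 85.6%, the highest member lay upstream of the highest other mRNA-TSSC.

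IMD3 is an example. Its second mRNA-TSSC, closer to the ATG at 1002415 to 1002493, had 326 in upf1∆rrp6∆ against 357 in upf1∆ cells, and 467 in rrp6∆ against 495 in WT cells. The printed IMD3 stretch lies between both clusters. LEU4 is similar: its member lies 456 nt before the ATG, and its main mRNA-TSSC, 11 nt before the ATG, had 479 in upf1∆rrp6∆ against 394 in upf1∆ cells, and 405 in rrp6∆ against 311 in WT cells. In MCR1 the member (XI, 164890 to 164960) lies 1584 nt before the ATG and had 186 in upf1∆rrp6∆ against 8 in upf1∆ cells, and 186 in rrp6∆ against 6 in WT cells. The main MCR1 cluster at the ATG had 529 in upf1∆rrp6∆ against 463 in upf1∆ cells, and 400 in rrp6∆ against 581 in WT cells. A 5′-end does not show where its RNA ends, so whether RNAs from an upstream cluster cover the ORF was not tested.

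HXT1, a low-affinity glucose transporter gene, had the same arrangement. Its member, 217 nt before the ATG, had 67 in upf1∆rrp6∆ against 8 in upf1∆ cells, and 27 in rrp6∆ against 1 in WT cells. The main HXT1 cluster, 12 nt before the ATG, had 225 in upf1∆rrp6∆ against 322 in upf1∆ cells, and 217 in rrp6∆ against 210 in WT cells. HMX1, a heme oxygenase gene, differed in that the clusters at both ends of its leader were members. The upstream cluster (XII, 554166 to 554243) had 752 in upf1∆rrp6∆ against 243 in upf1∆ cells, and the one at the ATG (553633 to 553857) had 196 in upf1∆rrp6∆ against 65 in upf1∆ cells.

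The position of the members was not used by the rule and differed from that of the other mRNA-TSSCs. From the 3′ edge of the cluster to the ATG the median was 124.5 nt for members, 9 nt for the other mRNA-TSSCs and 24 nt for others of like WT value. Members lay over 200 nt before the ATG in 36.2% of cases and the others in 7.72%, while 21.3% of members and 41.1% of the others reached the ATG or passed it. Several mRNA-TSSCs for the gene were found for 52.0% of members, 19.8% of the others and 32.0% of others of like WT value. Members were slightly wider, with a median of 87.5 nt against 77 nt for the others. A same-strand cryptic, Xrn1-sensitive or stable unannotated transcript overlapped 8.27% of the members and 4.49% of the others.

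With a longer leader, an ATG ahead of the ORF was common. At least 1 ATG stood between the cluster and the ORF for 113 members, or 44.5%, against 10.4% of the others and 21.6% of the others of like WT value. The MCR1 member had 23 such ATGs and the LEU4 member 11, but IMD3, URA2, NRD1 and REF2, with leaders of 186 to 202 nt, had 0. An annotated intron was present in the gene for 4 members, RPS14B, DBP2, GCR1 and YDL012C.

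**Figure D4:**
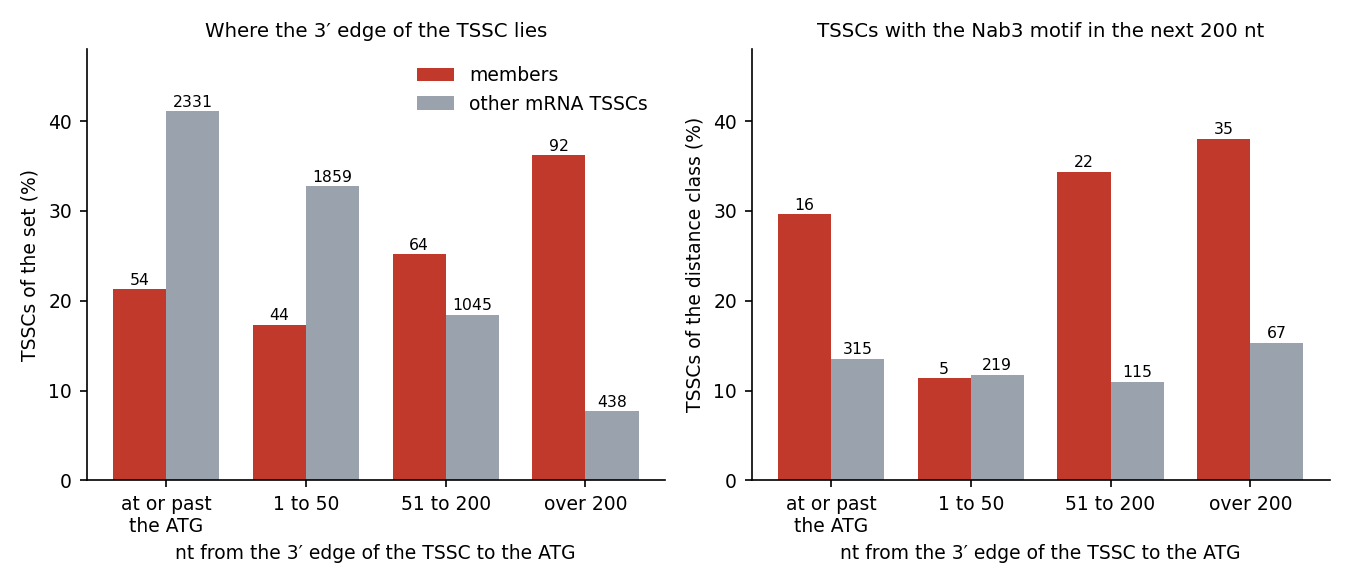
Left, share of the members (red) and of the other mRNA-TSSCs (gray) by the distance in nt from the 3′ edge of the cluster to the ATG. Right, share of each distance class with the Nab3 motif in the 200 nt after the cluster. Numbers on the bars count TSSCs: in the left panel 92 members lie over 200 nt before the ATG, and in the right panel 35 of these hold the motif.

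The Nab3 motif was found more often after the members, as counts with no test. TCTTG, searched on the sense strand in the 200 nt after the cluster, was present for 78 members, or 30.7%, against 12.6% of the other mRNA-TSSCs, 11.9% of those of like WT value and 13.4% of all mRNA-TSSCs. The Nrd1 motif GTAG was present for 48.4% of the members and 33.1% of the others, and for 33.8% of all. Both stood after 15.4% of the members, 3.77% of the others and 4.27% of all. For GTAA and for TCTT, which is part of TCTTG, the shares were 59.4% and 73.2% of the members, against 50.9% and 59.7% of the others. In the first 100 nt, TCTTG was present for 16.1% of the members and 6.10% of the others.

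The share with TCTTG differed by place. Among clusters over 200 nt before the ATG it was 38.0% of 92 members and 15.3% of 438 others, and 51 to 200 nt before the ATG it was 34.4% of 64 members and 11.0% of 1045 others. For clusters 1 to 50 nt before the ATG it was 11.4% of 44 members and 11.8% of 1859 others, and for those reaching the ATG or past it 29.6% of 54 members and 13.5% of 2331 others. Of the 78 members with TCTTG, 79.5% were over 2-fold higher in upf1∆rrp6∆ than in upf1∆ cells, and of the 176 without it 60.2%. The motif is not shared by all strong members. IMD3 had both motifs and NRD1 had GTAG alone, whereas URA2 had none of GTAG, GTAA and TCTTG in this window.

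Whether the RNAs of the members also respond to loss of Upf1 was read from the SET2 experiment, since the upf1∆ over WT ratio of the RRP6 experiment shares its WT with the rule. An overlapping mRNA-TSSC on the same strand was found there for 203 members. Of these, 73, or 36.0%, were over 2-fold higher in upf1∆ than in WT cells, against 13.3% of the 5640 paired mRNA-TSSCs. None was over 2-fold lower, where 0.479% of the paired mRNA-TSSCs were. The median log2 of this ratio was 0.74 over the paired members and 0.11 over all paired mRNA-TSSCs. In the RRP6 experiment, 39.9% of the same members and 12.9% of all paired mRNA-TSSCs were over 2-fold higher in upf1∆ than in WT cells. Of the 1587 other mRNA-TSSCs of like WT value, paired or not, 23.4% passed this ratio in the RRP6 experiment. The share of weak starts thus lay above that of all mRNA-TSSCs. No share of like WT value is given for the SET2 experiment. The 51 members without a partner were weak, with a median WT value of 2.

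The share differed with the place of the cluster and an upstream ATG. Of paired members with such an ATG, 50 of 90, or 55.6%, were over 2-fold higher in upf1∆ than in WT cells, against 9 of 73, or 12.3%, of those before the ORF without one. Of those reaching the ATG or past it, 14 of 40, or 35.0%, were. Over all paired mRNA-TSSCs the shares were 48.9% with an upstream ATG, 4.90% without and 13.7% at or past the ATG. A response to both losses was seen for 34 paired members, which were over 2-fold higher in upf1∆ than in WT of the SET2 experiment and in upf1∆rrp6∆ than in upf1∆ of the RRP6 experiment. For 94 only the second ratio passed, for 39 only the first and for 36 neither. The 34 are 46.6% of the 73 paired members that passed the first ratio and 26.6% of the 128 that passed the second. Both figures lie below the shares of all 203 paired members, of which 63.1% passed the second ratio and 36.0% the first. Among paired members, both responses thus coincided less often than their separate shares would give, as counts with no test. The members were chosen by their rrp6∆ over WT ratio, and how far that choice shapes this overlap was not tested. Over all paired mRNA-TSSCs, 49 passed both, which is 6.54% of 749 and 19.8% of 248. These figures lie above the shares of all 5640, of which 248 passed the second ratio and 749 the first.

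**Figure D5:**
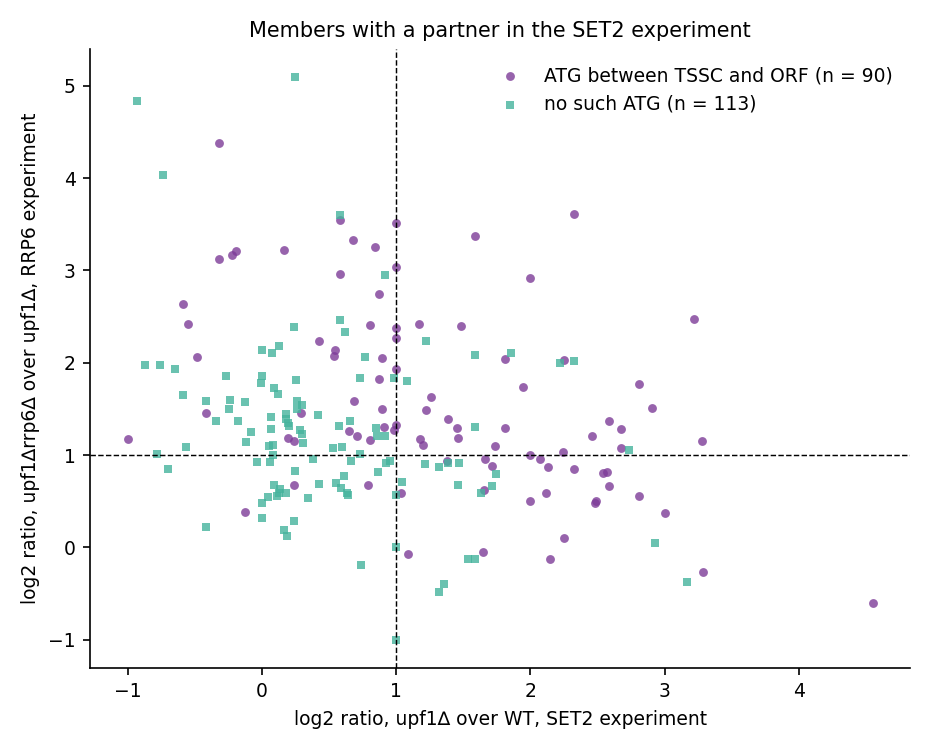
Log2 ratio of upf1∆rrp6∆ over upf1∆ in the RRP6 experiment against the log2 ratio of upf1∆ over WT in the SET2 experiment, for the 203 members found in both. Circles are members with an ATG between cluster and ORF (90), squares those without (113). The dashed lines mark 2-fold, and 34 members lie above both.

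Examples of both responses, chosen after their values were seen, were GTO1, IMP1 and TAF8. GTO1 encodes a glutathione transferase. Its member (VII, 798062 to 798259) had 2850 in upf1∆rrp6∆ against 1103 in upf1∆ cells, and 472 in rrp6∆ against 190 in WT cells. In the SET2 experiment it had 486 in upf1∆ against 80 in WT cells. IMP1, for a mitochondrial inner membrane peptidase subunit, had 620 in upf1∆rrp6∆ against 151 in upf1∆ cells, and 147 in rrp6∆ against 35 in WT cells. TAF8 had 27 in upf1∆ against 2 in WT cells of the SET2 experiment. IMD3 was of the other kind, with 115 in upf1∆ against 97 in WT cells there, and NRD1 had 83 in upf1∆ against 70 in WT cells.

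The SET2 experiment also gives the response to loss of a chromatin factor. There, 17 of the 203 paired members, or 8.37%, were over 2-fold higher in set2∆ than in WT cells, against 2.89% of the paired mRNA-TSSCs, and 3 were over 2-fold lower, against 1.06%. SNZ1 and its divergent neighbor SNO1, genes of vitamin B6 metabolism, led this group with 209 and 77 in set2∆ against 20 and 11 in WT cells. ARG5,6, for enzymes of arginine synthesis, was lower, with 38 in set2∆ against 182 in WT cells. These 3 genes were named after their values were seen. With Set2 absent, loss of Upf1 left 55 paired members, or 27.1%, over 2-fold higher in upf1∆set2∆ than in set2∆ cells, against 12.0% of the paired mRNA-TSSCs. The members were mostly weak starts, and no share of like WT value is given for these SET2 ratios. Some calls rest on low values, as for an ALD3 member with 7 in set2∆ and 1 in WT cells.

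Since low WT values helped to choose the members, these were set beside the second set of WT libraries. After scaling of that set by 1.36, the log2 ratio of WT of the RRP6 experiment over WT of the SET2 experiment had a median of 0.02 over the 203 paired members. Over 2-fold higher were 13 members, or 6.40%, against 4.10% of all paired mRNA-TSSCs, and over 2-fold lower were 10, or 4.93%, against 1.22%. The 51 members without a partner have no such check.

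Not every member was higher without Rrp6 when Upf1 was also absent. The 5 with the lowest upf1∆rrp6∆ over upf1∆ ratio at a mean of at least 20 were TRM13, RTC2, YLR125W, YBL055C and PAU17. TRM13, a tRNA methyltransferase gene, had a member (XV, 83684 to 83695) with 113 in upf1∆rrp6∆ against 172 in upf1∆ cells, and 14 in rrp6∆ against 6 in WT cells. YLR125W had 278 in upf1∆rrp6∆ against 360 in upf1∆ cells, and 106 in rrp6∆ against 46 in WT cells. RTC2, YBL055C and PAU17 had 18, 33 and 19 in upf1∆rrp6∆, against 24, 40 and 22 in upf1∆ cells. In 4 of these 5 the upf1∆ value was over 5 times the WT value, as in YBL055C with 40 in upf1∆ and 4 in WT cells.

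Gene lists showed where members were found. Among 9 genes known or thought to be controlled by early termination, 4 of 12 mRNA-TSSCs were members (NRD1, URA2, IMD2 and a weak one of GSC2), and 5 of 12 were over 2-fold higher in upf1∆rrp6∆ than in upf1∆ cells, beside 4.29% and 5.30% of all mRNA-TSSCs. The list does not move in 1 direction. TIS11, an mRNA-binding protein gene of the iron response, had 140 in upf1∆rrp6∆ against 355 in upf1∆ cells, and 239 in rrp6∆ against 512 in WT cells at its main mRNA-TSSC. ADE12, for adenylosuccinate synthase, had 1113 in upf1∆rrp6∆ against 839 in upf1∆ cells, and 1375 in rrp6∆ against 1307 in WT cells. Of 20 mRNA-TSSCs of the Nrd1-Nab3-Sen1, TRAMP and exosome genes, NRD1 and NAB3 were the 2 members (10.0%), and the median log2 ratio of upf1∆rrp6∆ over upf1∆ was 0.32. Of 23 of 3′-end processing genes, NAB2 and REF2 were members (8.70%), and the list's median in this ratio was 0.49.

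Lists tied to growth conditions held members at shares from 4.35% to 20.0%, beside 4.29% over all mRNA-TSSCs. The iron list gave 6 of 45 or 13.3% (HMX1 and ARN1 with 2 each, CTH1 and FRE2), the stress list 5 of 64 or 7.81% (ALD3 and YRO2 with 2 each, GRE1), and the meiosis list 3 of 40 or 7.5% (SPO23 with 2, SPO73). CTH1, which encodes an mRNA-binding protein, had 125 in upf1∆rrp6∆ against 47 in upf1∆ cells, and 127 in rrp6∆ against 42 in WT cells. SPO23, a gene expressed in meiosis, had 34 in upf1∆rrp6∆ against 2 in upf1∆ cells, and 34 in rrp6∆ against 3 in WT cells at its stronger member. The maltose list gave MAL33 (1 of 5, or 20.0%), an activator gene with 795 in upf1∆rrp6∆ against 157 in upf1∆ cells, and 502 in rrp6∆ against 120 in WT cells. The phosphate list gave 1 of 23 or 4.35% (GIT1), the hexose transport list 1 of 13 or 7.69% (HXT1) and the list of seripauperins and cell wall mannoproteins 2 of 13 or 15.4% (both PAU17). In upf1∆rrp6∆ over upf1∆, where 5.30% of all mRNA-TSSCs were over 2-fold higher, 8 of 45 iron, 3 of 64 stress, 4 of 40 meiosis and 2 of 5 maltose mRNA-TSSCs were over 2-fold higher, and 1 each of the other 3 lists. Over 2-fold lower were 8 iron, 8 stress, 6 meiosis, 0 maltose, 8 phosphate, 1 hexose and 1 cell wall mRNA-TSSC. For upf1∆rrp6∆ over upf1∆, the log2 medians of the iron, stress, meiosis, maltose, phosphate, hexose and cell wall lists were -0.02, -0.18, -0.08, 0.76, -0.37, 0.20 and -0.20, beside 0.15 over all mRNA-TSSCs.

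A small number of members were 1 nt wide, so that their start base is known. There were 8, and an A stood 8 nt before the start in 6 of them, against 99 of 130 (76.2%) among other 1-nt mRNA-TSSCs. The strongest, YEF3 and YLR194C, are shown here, 30 bases of R64 each with the start base in capitals, since these are the exact ends of RNAs raised without Rrp6.
YEF3: ttgcatcaaaattttGtagaatatctcttt
YLR194C: gcgactgaggtagctGaaaaacgcctactt
YEF3, a translation elongation factor gene, had 70 in upf1∆rrp6∆ against 16 in upf1∆ cells, and 49 in rrp6∆ against 13 in WT cells at this start (XII, 636682, plus strand, shown from 636667 to 636696). YLR194C, for a cell wall protein, had 71 in upf1∆rrp6∆ against 47 in upf1∆ cells, and 50 in rrp6∆ against 20 in WT cells (XII, 541698, minus strand, shown from 541684 to 541713).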

How the data were processed

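The 2 deposited tables hold TSSCs of the RRP6 and SET2 experiments (12 libraries each). The authors mapped 5′-ends with Bowtie2 to R64, removed duplicates, filtered on control libraries without TAP and on starts at a purine after a pyrimidine, joined starts at most 50 nt apart (at least 4 reads in a library) and normalized with DESeq2 to reads just upstream of ORFs. The control libraries came from upf1∆rrp6∆ cells for the RRP6 experiment and from upf1∆set2∆ cells for the SET2 experiment. The deposited score values are normalized reads rounded to whole numbers, 1 per genotype; that they are means of 3 libraries is inferred. The tables also give the authors' log2 fold changes and p-values, which were not used. The 16 other libraries of the series were not analysed here.

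Members, gene lists and comparisons were chosen with earlier results of these data known. Ratios are log2((a + 1)/(b + 1)), called over 2-fold. The count models planned for reads per library could not be fitted. SET2 partners were mRNA-TSSCs with a same-strand overlap of 1 nt or more (the largest taken). SET2 values were scaled for the WT comparison only, and tables were otherwise never mixed. Sequences and ORFs came from RefSeq R64, where 231 of 232 member ORFs have an ATG at the deposited start. Named TSSCs were the 20 with the largest ratio at a mean of at least 20, the 10 highest in WT, the 5 largest and 5 smallest upf1∆rrp6∆ over upf1∆ ratios, 3 on each side of the limit, list members, RRP6, NAM7 and ACT1. Other names were chosen after seeing values. Older gene symbols of the lists were matched through RefSeq synonyms. Python 3.11.15, pandas 2.3.3 and NumPy 2.4.6 were used, and the fold rule was tested on simulated data.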

Additional observations from a re-analysis of the deposited data

How the results depend on the processing

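Leaving out single libraries was not run, since each genotype has 1 pooled value. No paired analysis was possible because the columns hold pooled values with no library number. The number of members was 254 and ranged from 190 to 297 over the pseudocounts 0.1 and 5, a mean of at least 10 and a ratio taken relative to the median of mRNA-TSSCs. The number over 2-fold higher in upf1∆rrp6∆ than in upf1∆ cells was 168 and lay between 150 and 170 under the same alternatives. With members of a WT value of at least 10 only, an alternative chosen after seeing the data, it was 95 of 154. In the SET2 experiment, the 73 members over 2-fold higher in upf1∆ became 48 of 129 when the overlap had to cover at least 0.5 of both clusters, and the 17 over 2-fold higher in set2∆ became 26 with a pseudocount of 0.1. The excess of upstream ATGs over other mRNA-TSSCs was 34.1 percentage points, and 22.9 against those of like WT value. That of TCTTG was 18.1 points, and 10.0 in a window of 100 nt. Of 114 recalculated ratios for 38 named members, 113 kept their direction and their side of 2-fold. The exception was NAB3, whose log2 ratio of upf1∆rrp6∆ over upf1∆ was 0.99 relative to the median of mRNA-TSSCs. Values under 10 limit the precision of 100 members in WT, and the spread between libraries is not part of any number here.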

Other observations

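Members also lay opposite other starts. On the other strand, within 300 nt upstream, 37.0% of the members had a noncoding TSSC as nearest start, against 44.3% of the other mRNA-TSSCs. The noncoding partners were over 2-fold higher in upf1∆rrp6∆ than in upf1∆ cells in 56.4% of the cases for members and 63.3% for the others. An mRNA-TSSC was the nearest for 76 members, and 10 of these partners, or 13.2%, were over 2-fold higher in upf1∆rrp6∆ than in upf1∆ cells, against 5.22% of the 1455 partners of other mRNA-TSSCs. In 5 gene pairs the nearest such mRNA-TSSC of a member was itself a member: IMD3 with the autophagy gene ATG23 (117 nt apart), NAB3 with GUP2 (182 nt), MAL33 with YBR296C-A (225 nt), TOD6 with YBL055C (64 nt) and YHL015W-A with the urea transporter gene DUR3 (116 nt).

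Within 30 kb of a chromosome end lay 24 members, or 9.45%, against 4.39% of the other mRNA-TSSCs and 6.43% of those of like WT value. Of the 24, 18 were over 2-fold higher in upf1∆rrp6∆ than in upf1∆ cells. They include 2 clusters of YHR214C-E with 15 and 43 in upf1∆rrp6∆ against 2 and 4 in upf1∆ cells, AGP3, MAL33 and IMD2. Genes near chromosome ends can have near-identical copies, so the values of YHR214C-E are uncertain. How reads of copies were placed was not tested.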
